A study of Sus scrofa with 9 samples.

Results

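Adrenomedullin and calcitonin gene-related peptide (CGRP) are vasodilator peptides that act through the same seven-transmembrane protein, the calcitonin receptor-like receptor encoded by CALCRL. CALCRL reaches the cell surface and gains its ligand preference only in a complex with a receptor activity-modifying protein (RAMP), a small protein with a single membrane span. RAMP1 makes it a CGRP receptor, and RAMP2 or RAMP3 make it an adrenomedullin receptor. RAMPs also combine with the calcitonin receptor CALCR to form receptors for amylin. Adrenomedullin signalling through CALCRL and RAMP2 is best known in the endothelium, where it acts on vascular tone, permeability and vessel growth. The gene set consisted of these receptor genes (CALCRL and CALCR), the RAMP genes (RAMP1, RAMP2 and RAMP3) and the ligand genes ADM, for adrenomedullin, and CALCA, for calcitonin and alpha-CGRP. Of these 7 symbols, 5 were listed in both deposited tables, among 18752 symbols shared by the tables. RAMP1 was listed only with the vitamin-C comparison, and CALCA was not analysed here. The set was chosen by the exonic 5hmC levels of CALCRL and RAMP2, both low in Obese-MSCs against Lean-MSCs, so for these genes that contrast is only described, and the study's thresholds are given for it as part of how the set was chosen and not as a test.

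Exonic 5-hydroxymethylcytosine (5hmC), a DNA mark made by oxidation of methylcytosine by TET enzymes, was measured by hMeDIP-seq, in which an antibody captures the 5hmC-bearing DNA fragments for sequencing. There were 3 libraries of Lean-MSCs, from female domestic pigs on standard chow, and 3 of untreated Obese-MSCs, from pigs that ate a high-fat/high-fructose diet for 16 weeks, with all pigs 3 months old at the start. The other 3 libraries came from Obese-MSCs incubated with vitamin-C, a cofactor of TET enzymes, at 50 µg/mL for 48 h. All cells were primary mesenchymal stem/stromal cells from subcutaneous abdominal fat, grown in medium with platelet lysate. The paper states that this medium itself contained vitamin-C, so that the effect of the treatment may have been underestimated. Untreated, or without vitamin-C, therefore means below that no vitamin-C was added to the medium. The labels do not say which cultures share an animal, so tests were unpaired and p-values measure the spread between libraries.

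The values are normalized counts of reads over all exons of a gene, which the authors made with edgeR separately for each comparison, and they measure a DNA mark and not expression. Library totals lay between 494566 and 522269 in the Obese and Lean table and between 547242 and 593846 in the table of treated and untreated Obese-MSCs. The median gene had 11.9 to 14.2 normalized counts in a library, so several genes below rest on few fragments. In 3 libraries (Lean 8, Lean 9 and treated 4), all values between 0.3 and 12 lay within 0.1 of a step from whole multiples of 0.998, 1.03 and 1.01 normalized counts, so that 1 normalized count there stands for about 1 counted read. The untreated libraries are in both tables, with values 1.10 to 1.13 times as high in the vitamin-C table (median over genes), so groups were compared only within a table. Exon lengths were not used here, and levels are therefore not ranked between genes. In bulk DNA, a lower level in every cell and fewer marked cells cannot be told apart. Because 5hmC lies on DNA, marker genes cannot check the cell type as transcripts would. In untreated Obese-MSCs, mean levels ran from 21.8 (THY1) to 212 (PDGFRA) normalized counts over 5 MSC markers, from 3.34 (EMCN) to 139.5 (PECAM1) over 8 endothelial markers, from 2.02 (CD14) to 79.7 (CD68) over 6 leukocyte and exclusion markers, and from 4.45 (PLIN1) to 95.9 (ADIPOQ) over 4 adipocyte markers.

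In the receptor genes, exonic 5hmC of CALCRL was lower in Obese-MSCs than in Lean-MSCs. CALCRL (NCBI gene 397172, chromosome 15 from 92233264 to 92332459 in Sscrofa11.1) measured 18.5, 21.8 and 20.03 normalized counts in Obese libraries 1, 2 and 3, and 29.4, 23.8 and 33.9 in Lean libraries 7, 8 and 9. Every Obese library lay below every Lean library, with Obese 2 and Lean 8 the closest. The means were 20.1 ± 1.65 and 29.0 ± 5.03 (SD, n = 3 each), a ratio of 0.694. CALCR, the calcitonin receptor gene (chromosome 9 from 73279874 to 73403516), measured 10.7, 11.4 and 15.1 in Obese libraries 1, 2 and 3 against 14.7, 11.9 and 17.4 normalized counts in Lean libraries 7, 8 and 9. Its groups overlapped, with means of 12.4 ± 2.38 and 14.7 ± 2.77 (SD, n = 3 each) and a log2 ratio of -0.24.

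RAMP2, the partner that turns CALCRL into an adrenomedullin receptor, had the lowest ratio of the set in Obese-MSCs versus Lean-MSCs. This short gene (NCBI gene 397155) spans 2223 bases of chromosome 12, from 20092204 to 20094426. Obese libraries 1, 2 and 3 held 5.51, 3.77 and 4.72 normalized counts of RAMP2, and Lean libraries 7, 8 and 9 held 15.7, 11.9 and 8.25. The highest Obese library was below the lowest Lean library, and the Lean libraries ranged more widely than the Obese ones. The means were 4.67 ± 0.870 and 11.9 ± 3.71 (SD, n = 3 each), so the level was 2.56-fold higher in Lean-MSCs. RAMP3, which also forms an adrenomedullin receptor with CALCRL, lay the other way. RAMP3 (chromosome 18 from 50319795 to 50366757) was at 7.66, 9.49 and 9.39 in Obese libraries 1, 2 and 3, and at 4.61, 8.94 and 5.15 normalized counts in Lean libraries 7, 8 and 9. The groups overlapped through Lean 8, and the means of 8.85 ± 1.03 and 6.24 ± 2.36 (SD, n = 3 each) gave a log2 ratio of 0.50. The annotated span of RAMP3 contains the whey acidic protein gene WAP, whose exons may share fragments with it.

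The ligand gene ADM had 7.98 normalized counts or fewer in every library of either table. ADM (chromosome 2 from 49229223 to 49231521) was at 7.34, 0.890 and 3.58 in Obese libraries 1, 2 and 3, and at 2.20, 0.992 and 0.00670 normalized counts in Lean libraries 7, 8 and 9. The groups overlapped, the Lean mean was under 3 normalized counts, and no ratio is given. RAMP1 (chromosome 15 from 137490440 to 137535555) was listed in the vitamin-C table at 0 in every untreated library and at no more than 0.943 in a treated one.

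**Figure D1:**
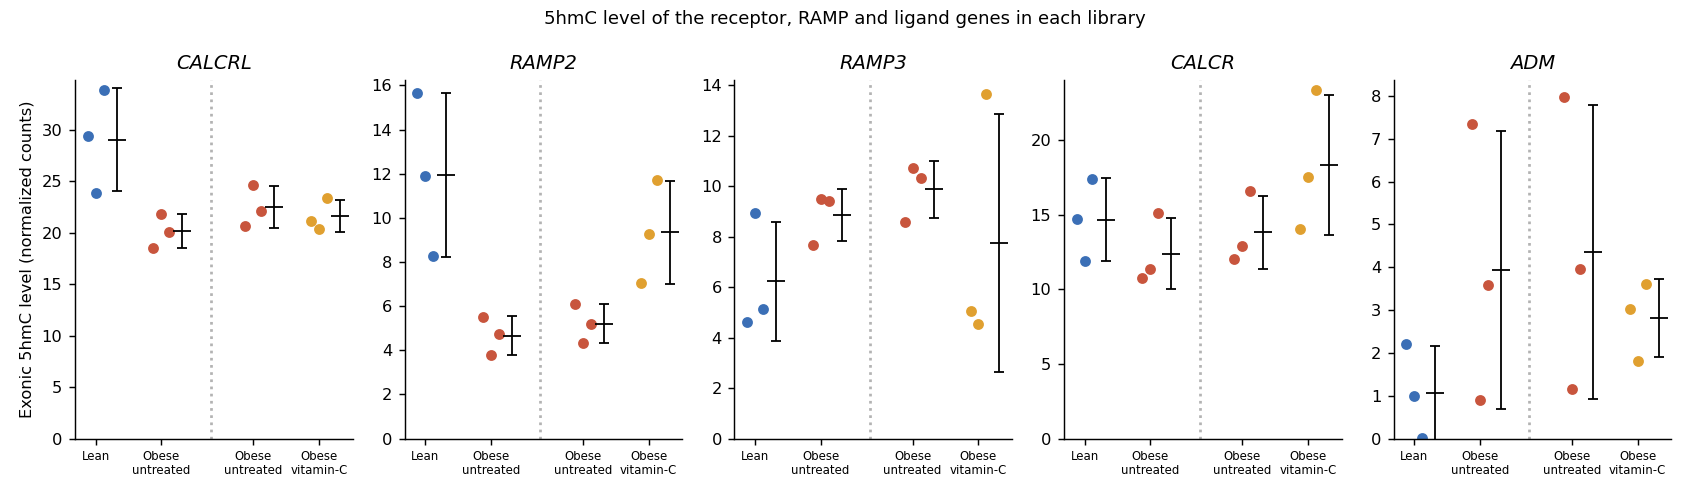
Exonic 5hmC level (normalized counts, linear axes from 0) of 5 genes. Points are libraries, dashes with bars are the mean ± SD of 3 libraries, and the dotted line separates the Obese and Lean table (left) from the separately normalized vitamin-C table (right), which hold the same untreated libraries. RAMP2 lies between 3.77 and 5.51 in the Obese libraries and between 8.25 and 15.7 in the Lean libraries, and ADM is at 3.61 or below in every treated library.

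By the study's criteria, an unadjusted p-value of 0.05 or less in a two-sided test with equal variances and a ratio of means of at least 1.4 or at most 0.7, 2 of the 5 genes (CALCRL and RAMP2) were low in Obese-MSCs and 0 were high, which the choice of the set fixed. Over all 18933 genes, 2.43% met these criteria as low, 2.07% as high and 4.5% in either direction. Groups did not overlap for the same 2 genes of the 5, both lower in Obese-MSCs, where 6.06% of all genes had such a lower, 5.7% such a higher and 11.8% either pattern. Since this contrast chose the set, nothing is read from these counts or from the values with a library left out. CALCRL, at a ratio of 0.694, lay just inside the ratio threshold, and RAMP3, at 1.42, passed the ratio threshold but not the p-value threshold. With limma, 0 of 15146 tested genes passed an adjusted p-value of 0.05 in this contrast, while 1031 (6.81%) passed 0.05 before adjustment. With 1 library left out in turn, the log2 ratio stayed between -0.65 and -0.40 for CALCRL and between -1.56 and -1.11 for RAMP2. Neither gene met the criteria without Obese 1, 2 or 3, only RAMP2 without Lean 7 or 9, and CALCRL together with RAMP3 without Lean 8.

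With vitamin-C, exonic 5hmC of RAMP2 was higher than in untreated Obese-MSCs, although the difference did not pass limma's adjusted test, and the CALCRL groups had a ratio of means of 0.962. This comparison asks whether 48 h with added vitamin-C moves the mark in Obese-MSCs. Its untreated libraries are those whose low values chose the set, so a low untreated value enters both comparisons. The p-values, calls and overlaps of RAMP2 and CALCRL below are therefore not independent of the choice. RAMP2 measured 7.05, 9.25 and 11.7 normalized counts in treated libraries 4, 5 and 6 and 6.08, 4.32 and 5.21 in untreated libraries 1, 2 and 3. Every treated library lay above every untreated one, although treated 4 and untreated 1 were within about 1 normalized count. The means of 9.34 ± 2.33 and 5.20 ± 0.882 (SD, n = 3 each) gave a 1.79-fold difference. CALCRL had 21.1, 20.3 and 23.3 normalized counts in the treated and 20.7, 24.6 and 22.1 in the untreated libraries. The groups overlapped, with means of 21.6 ± 1.54 and 22.5 ± 2.01 (SD, n = 3 each) and a log2 ratio of -0.06.

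CALCR and RAMP3 spread more widely among the treated than among the untreated libraries (SD 4.71 against 2.44 and 5.12 against 1.14 normalized counts), and ADM less widely (0.914 against 3.43). CALCR had 14.1, 17.6 and 23.4 normalized counts in the treated and 12.02, 12.9 and 16.6 in the untreated libraries, which overlapped, and its log2 ratio was 0.41. RAMP3 had 5.04, 4.55 and 13.7 in the treated and 8.57, 10.7 and 10.3 in the untreated libraries. Treated 6 was the highest of all 6 libraries and the other two treated libraries the lowest, so the log2 ratio of -0.35 became -1.04 without treated 6. ADM had 3.02, 1.82 and 3.61 normalized counts with vitamin-C and 7.98, 1.15 and 3.97 without, levels too low for a ratio.

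In this comparison 1 of the 6 listed genes, RAMP2, met the study's criteria, as high, where 1.11% of all 18992 genes did as high and 0.806% as low. RAMP2 was also the 1 gene whose groups did not overlap, a pattern seen in 5.91% of all genes and, with the treated libraries higher, in 3.24%. The low untreated values that chose RAMP2 favour both results, so nothing is read from setting them beside these shares. For RAMP2, p was 0.1 in a two-sided exact permutation test, the smallest that 3 libraries against 3 allow, and the same exact test gave p = 0.6 for CALCRL, 0.2 for CALCR, 0.4 for RAMP3, 0.6 for ADM and 0.4 for RAMP1. On the log2(value + 1) scale, limma gave RAMP2 a change of 0.72 ± 0.41 (SE) with a 95% interval of -0.15 to 1.59 and an adjusted p-value of 1. For CALCRL the limma change was -0.05 ± 0.29 (SE) with an interval of -0.66 to 0.55, which reaches past 0.5 in either direction. The untreated libraries that chose the set enter these exact and limma results of RAMP2 and CALCRL, so nothing is read from them. With limma, 0 of 15194 genes passed an adjusted p-value of 0.05 (0%), while 148 (0.974%) passed 0.05 before adjustment. RAMP2 did not meet the study's criteria without treated 5 or 6 or without untreated 1, 2 or 3, although its log2 ratio stayed between 0.65 and 1.01. Without treated 6, RAMP3 met them as low.

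**Figure D2:**
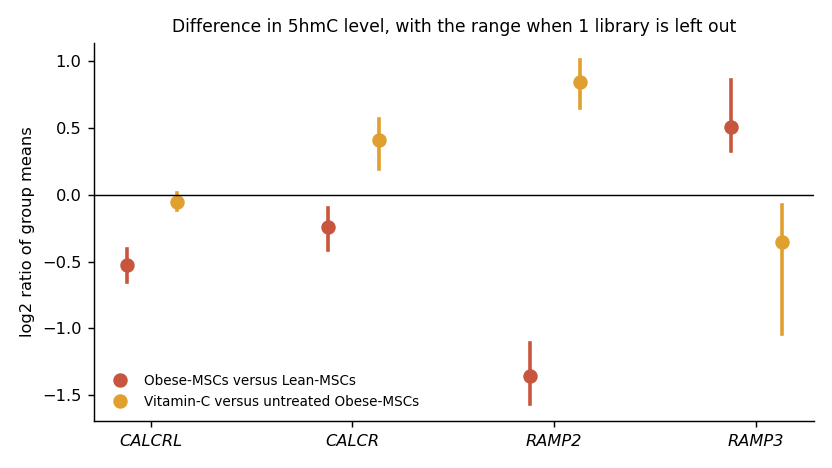
Log2 ratio of group means (vertical axis) of exonic 5hmC for the 4 genes with group means above 3 normalized counts, for Obese-MSCs relative to Lean-MSCs and for Obese-MSCs with vitamin-C relative to those without. Circles are the ratios with all libraries and lines span the values with 1 library left out at a time. RAMP2 is at -1.36 and 0.84, and CALCRL at -0.53 and -0.06. The untreated libraries enter both comparisons.

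Set against the mean of the untreated libraries of its own table, RAMP2 stood at 2.56 ± 0.794 in Lean-MSCs and at 1.79 ± 0.449 with vitamin-C (SD, n = 3 each). CALCRL stood at 1.44 ± 0.250 and 0.962 ± 0.0685, CALCR at 1.18 ± 0.223 and 1.33 ± 0.340, and RAMP3 at 0.705 ± 0.267 and 0.785 ± 0.519. The same untreated libraries are the denominator on both sides, and their low RAMP2 and CALCRL levels chose the set. Values above 1 are therefore favoured for these genes, and nothing is read from the values standing side by side. Treated Obese-MSCs and Lean-MSCs were not in a common table, so the difference between them was not tested.

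Both adrenomedullin receptor types need CALCRL, and the RAMP gene decides which one is formed, so the RAMP genes were also compared within each library, a choice made after their values were seen. The ratio of RAMP2 to RAMP3 was 0.719, 0.397 and 0.503 in Obese libraries 1, 2 and 3, and 3.395, 1.33 and 1.60 in Lean libraries 7, 8 and 9. The ratio was thus lower in every Obese library than in any Lean library. RAMP2 was chosen as low in these Obese libraries, which favours this pattern, so nothing is read from it. The ratio is of a DNA mark and does not show which receptor is formed. Since it is not corrected for exon length, a ratio of 1 does not mark equal density of the mark in the genes. In the vitamin-C table the ratio was 1.399, 2.04 and 0.858 in treated libraries 4, 5 and 6 and 0.710, 0.403 and 0.504 in the untreated ones. The treated libraries lay above the untreated ones, with treated 6 the nearest to them, and no test is given because the untreated values of RAMP2 chose the set. The ratio of RAMP2 to CALCRL was 0.297, 0.173 and 0.236 in the Obese and 0.533, 0.5002 and 0.244 in the Lean libraries, which overlapped because of Lean 9. With vitamin-C it was 0.334, 0.455 and 0.503 against 0.294, 0.175 and 0.236, with no overlap, again as a description.

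**Figure D3:**
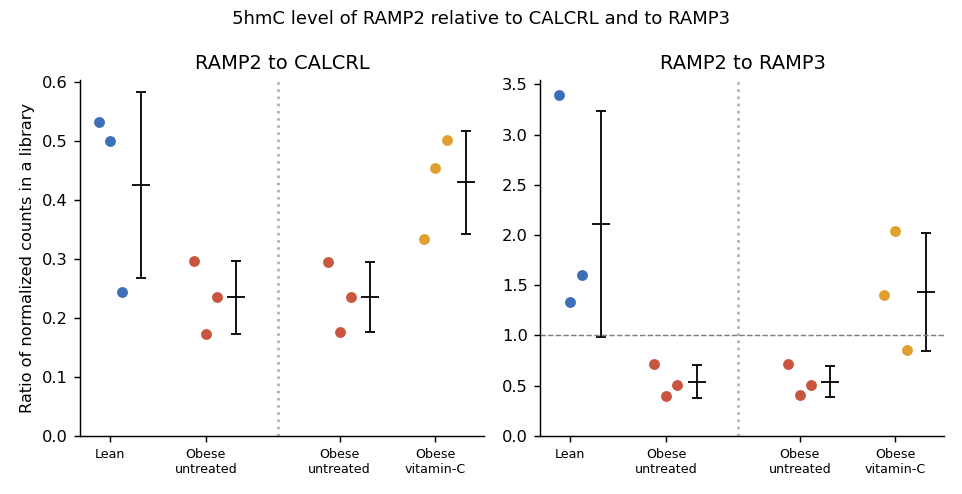
Ratio of normalized counts within each library (linear axes from 0) of RAMP2 to CALCRL (left) and RAMP2 to RAMP3 (right). Points are libraries, dashes with bars the mean ± SD of 3, the dotted line separates the tables and the dashed line marks a ratio of 1 without correction for exon length. RAMP2 to RAMP3 lies between 0.397 and 0.719 in the Obese libraries and between 1.33 and 3.395 in the Lean libraries. RAMP2 was chosen as low in the Obese libraries, which favours this pattern.

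RAMP2 has no overlapping gene in the RefSeq annotation. The 2 measured genes next to RAMP2 on each side also had lower mean 5hmC in Obese-MSCs versus Lean-MSCs, although 0 of the 4 met the criteria. The log2 ratio was -0.67 for WNK4, a kinase gene that ends 10423 bases away, and -0.64 for VPS25, an ESCRT subunit gene 3761 bases away. On the other side it was -0.34 for EZH1, a Polycomb methyltransferase gene, and -0.28 for CNTNAP1, a gene of neuronal cell contacts. Over all genes with both means above 3 normalized counts, 49.2% had a lower mean in Obese-MSCs. With vitamin-C, the log2 ratio was -0.37 for WNK4, 0.30 for VPS25, 0.03 for EZH1 and 0.35 for CNTNAP1. The nearest measured gene to CALCRL, the anticoagulant gene TFPI 12624 bases away, had a mean of 28.8 normalized counts in either group. The next measured genes lay 368037 (ZSWIM2), 435252 (FAM171B) and 655635 (GULP1) bases away, and their log2 ratios were -0.39 for FAM171B, -0.23 for ZSWIM2 and 0.24 for GULP1.

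The genes most like CALCRL and RAMP2 across libraries were ranked by the mean of the Pearson correlations of log2(value + 1) over the 6 libraries of each table, as a description. For CALCRL, the highest of 9122 genes were ANKRD24 with a mean r of 0.95, WDR19 with 0.85 and PHACTR4 with 0.84. For RAMP2, FANCD2 had 0.95, DMKN 0.90 and NGRN 0.89 among 9123 genes. Taking the highest of so many genes favours high values. The group difference that chose CALCRL and RAMP2 also enters these correlations, so nothing is read from them. FANCD2, a DNA crosslink repair gene, averaged 44.2 normalized counts for Obese-MSCs and 68.6 for Lean-MSCs. In the vitamin-C comparison it averaged 57.9 in the treated and 49.3 in the untreated libraries. The mean r between CALCRL and RAMP2 themselves was 0.18, from 0.63 over the Obese and Lean libraries and -0.27 over the treated and untreated ones. CALCRL and RAMP3 had r of -0.81 and 0.75. All of these values rest on 6 libraries a table, 3 of them shared.

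The other genes of the pathway were taken from a list of ligands, peptide processing and breakdown, receptor partners, cAMP signalling and other class B receptors. Of 66 listed genes 63 were measured. Between Obese-MSCs and Lean-MSCs, 0 met the study's criteria as high and 2 as low, CRSP3 and VIPR1, against 4.5% of all genes. With vitamin-C 1 did, ADM5 as high, against 1.92%. The median log2 ratio was 0.09 over 54 genes and 0.01 over 57 genes with both means above 3 normalized counts. Groups did not overlap in 11 of the 63 genes between Obese-MSCs and Lean-MSCs, 5 higher and 6 lower in Obese-MSCs. Over all genes the share was 11.8%, with 5.7% higher and 6.06% lower. With vitamin-C, groups did not overlap in 2 of the 63, both higher, against 5.91% of all genes in either direction and 3.24% higher. With limma, 0 of the 55 listed genes tested between Obese-MSCs and Lean-MSCs passed an adjusted p-value of 0.05, while 6 passed 0.05 before adjustment, where 6.81% of all genes did. With limma, 0 of the 56 listed genes tested in the vitamin-C comparison passed an adjusted p-value of 0.05, and 0 did before adjustment.

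Among the ligands, CRSP3 and CRSP-2, which encode calcitonin receptor-stimulating peptides of the calcitonin gene family, lie 98370 bases apart on chromosome 2 and were both lower in Obese libraries. CRSP3 (from 44135970 to 44145211) was at 3.12, 2.84 and 2.4 in Obese libraries 1, 2 and 3, and at 4.68, 9.93 and 9.23 normalized counts in Lean libraries 7, 8 and 9. Its groups did not overlap, and the Obese mean of 2.79 was too low for a ratio. CRSP-2 (from 44243581 to 44263254) was at 6.01, 6.60 and 12.7 in Obese libraries 1, 2 and 3, and at 21.3, 13.9 and 15.4 in Lean libraries 7, 8 and 9. These groups did not overlap either, and the ratio was 0.499, but CRSP-2 did not meet the p-value criterion. With 1 library left out, CRSP3 met the criteria only without Lean 7. With vitamin-C, CRSP3 had 5.03, 7.47 and 3.50 normalized counts against 3.46, 3.22 and 2.67 (exact permutation test, p = 0.1). Treated 6 and untreated 1 were nearly equal, and the limma change was 0.58 ± 0.51 (SE), adjusted p = 1. CRSP-2 had 14.1, 8.23 and 17.1 against 6.79, 7.55 and 13.8, which overlapped. These genes are close relatives of each other and of CALCB, and how the counting divided fragments between them is uncertain.

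The remaining ligand genes were close to 0. The amylin gene IAPP had at most 2.13 normalized counts in any library and the row named CALCB, a symbol that RefSeq gives to more than one porcine gene, at most 4.10. ADM5 had 3.02, 1.83 and 1.76 with vitamin-C against 0.863, 1.07 and 0.0410 without, so that its call rests on levels of about 3 normalized counts or less, and it met the criteria with none of the 6 libraries left out. ADM2 was not analysed here.

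Peptide processing and clearance genes met the criteria in neither comparison (0 of 7), where 4.5% and 1.92% of all genes did. PAM, which amidates adrenomedullin into its active form, averaged 58.9 ± 10.6 normalized counts for Obese-MSCs and 54.7 ± 7.90 for Lean-MSCs. In the vitamin-C comparison PAM averaged 64.5 ± 13.5 in the treated and 65.6 ± 10.8 in the untreated libraries (SD, n = 3 each). MME, the peptidase neprilysin, averaged 15.7 ± 9.88 for Obese-MSCs and 13.5 ± 4.80 for Lean-MSCs. Of 10 receptor partners, 0 met the criteria in either comparison, against the same shares of all genes. GPR182, once proposed as an adrenomedullin receptor, averaged 35.3 ± 5.16 for Obese-MSCs and 39.1 ± 1.91 for Lean-MSCs. The scavenger receptor gene ACKR3 had 8.66 ± 8.42 with vitamin-C and 4.41 ± 2.45 without, and its log2 ratio of 0.97 became -0.20 without treated 6.

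Downstream of the receptor, 0 of 28 genes for Gs, adenylyl cyclases, protein kinase A and other cAMP effectors met the criteria in either comparison. Their log2 ratios ran from -0.52 to 0.85 in Obese-MSCs versus Lean-MSCs (median 0.09) and from -0.39 to 0.58 with vitamin-C (median 0.02). Over all genes, 4.5% and 1.92% met the criteria. Of the 28, 4 were higher and 2 lower in Obese-MSCs without overlap, against 5.7% and 6.06% of all genes. With vitamin-C, 0 of the 28 did not overlap, against 5.91%. Of 27 tested with limma between Obese-MSCs and Lean-MSCs, 2 passed 0.05 before adjustment, against 6.81% of all genes, and 0 after it. GNAS, the Gs alpha subunit gene, averaged 46.4 normalized counts for Obese-MSCs and 38.5 for Lean-MSCs. Of 13 other class B receptors, 1, VIPR1, was called, as low in Obese-MSCs, where 2.43% of all genes were. VIPR1, a receptor for vasoactive intestinal peptide (chromosome 13 from 26036610 to 26073168), was at 19.7, 13.2 and 16.5 in Obese libraries 1, 2 and 3, and at 32.7, 26.8 and 27.7 normalized counts in Lean libraries 7, 8 and 9. The groups did not overlap, the log2 ratio was -0.82, and VIPR1 met the criteria with each of the 6 libraries left out in turn. With vitamin-C it had 27.2, 15.7 and 16.9 against 21.7, 15.1 and 18.2, which overlapped (exact permutation test, p = 0.8).

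**Figure D4:**
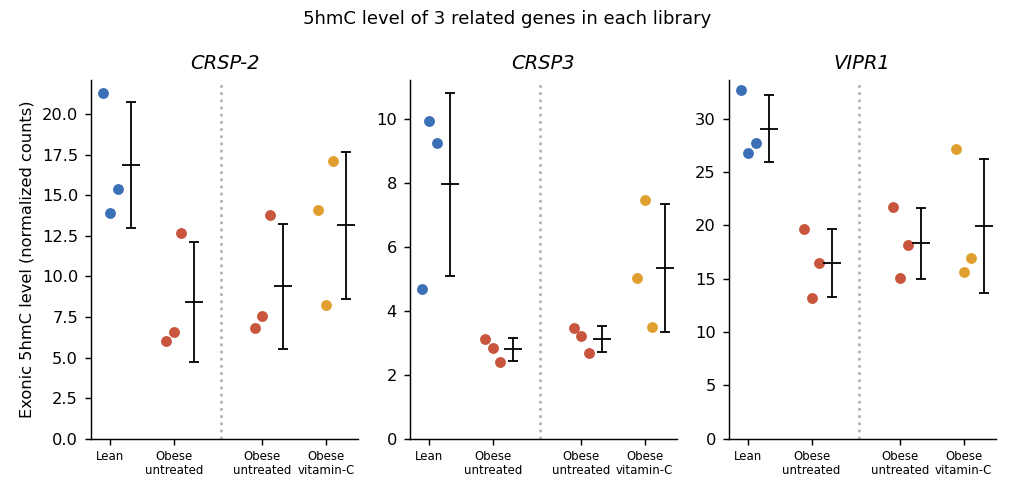
Exonic 5hmC level (normalized counts, linear axes from 0) of CRSP-2, CRSP3 and VIPR1. Points are libraries, dashes with bars the mean ± SD of 3, and the dotted line separates the separately normalized tables. Obese libraries lie below Lean libraries for each gene, with CRSP3 at 3.12 or less in Obese-MSCs, and VIPR1 overlaps between treated and untreated libraries.

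**Figure D5:**
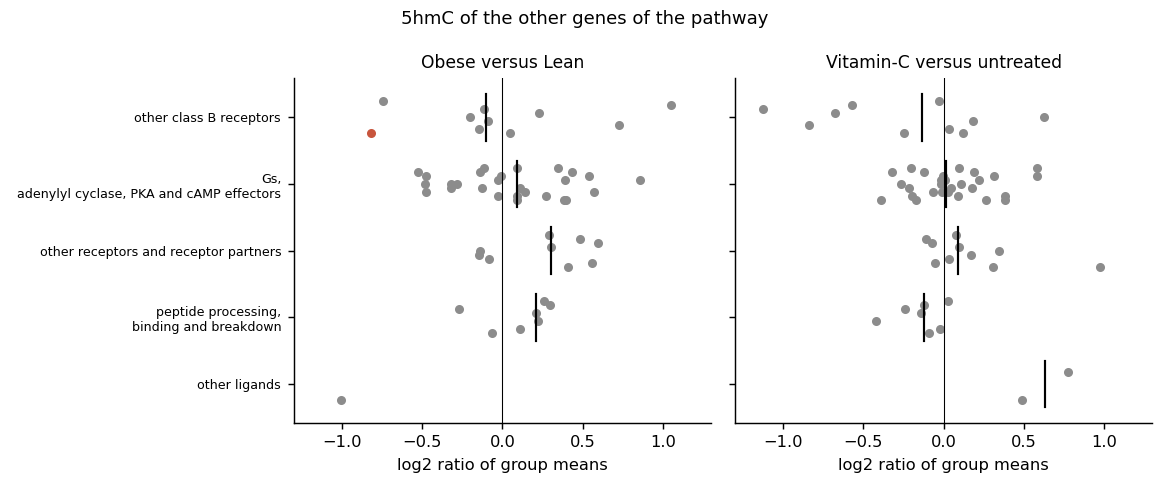
Log2 ratio of group means of each listed pathway gene with both means above 3 normalized counts (54 genes left, 57 right), by role, in Obese-MSCs versus Lean-MSCs (left) and with vitamin-C versus without (right). Points are genes, red where the study's criteria were met, and black lines are medians. VIPR1 at -0.82 is the red point. CRSP3 and ADM5 met the criteria on means too low to be drawn in the comparison concerned.

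The levels of cell type markers were set beside these results. The summed level of 8 endothelial marker genes spanned 299 to 306 normalized counts for Obese-MSCs and 270.4 to 331 for Lean-MSCs, which overlapped. TEK, an angiopoietin receptor gene and 1 of the 8, met the criteria as low, with means of 26.4 and 41.3. Over all genes, 2.43% met them as low. In the vitamin-C table the endothelial sum was 268 to 316 in the treated and 329 to 340.2 in the untreated libraries, lower in every treated library. Among single genes, 2.67% had that pattern, and no other list sum separated the groups in either comparison. PECAM1 made up most of the difference in the endothelial sum, with means of 122.2 in the treated and 155.5 in the untreated libraries. CDH5 (13.8 and 17.2), KDR (10.4 and 15.8), TEK (26.3 and 29.5), TIE1 (39.7 and 42.2) and ERG (28.9 and 34.4) also had lower means. VWF (38.8 and 37.4) and EMCN (7.60 and 3.71) were not lower, and 0 of the 8 met the criteria. The sum of 5 MSC markers was 294 to 526.5 for Obese-MSCs and 280.0 to 336 for Lean-MSCs. In the vitamin-C comparison this sum was 328.5 to 582.5 in the treated and 332.5 to 583 in the untreated libraries. For 6 leukocyte and exclusion markers the sum was 171.5 to 197 for Obese-MSCs and 179 to 231 for Lean-MSCs. The T cell gene CD3E, 1 of the 6, was low by the criteria there, where 2.43% of all genes were. With vitamin-C the leukocyte and exclusion sum was 180.2 to 245 in the treated and 190.1 to 219 in the untreated libraries. For 4 adipocyte markers the sum was 99.4 to 126 for Obese-MSCs and 98.6 to 123 for Lean-MSCs. In the vitamin-C comparison the adipocyte sum was 117 to 126 in the treated and 113 to 140.1 in the untreated libraries. The part of cell composition in the results was not tested.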

How the data were processed

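The authors aligned paired 51-base reads with Bowtie2 2.3.3.1 to susScr 11.1, removed duplicates with Picard 1.67, counted reads over exons with HTSeq 0.9.1 and processed the counts with edgeR 3.28.1. The deposited values are a signal in normalized counts per gene, with one table for each comparison (18933 and 18992 genes). Whole reads could not be recovered for every library, since 38.4% to 100% of low values lay near whole steps, so no count test was run. The depth in reads is unknown, and the spread over 3 libraries is the error given. In the vitamin-C comparison, 645 values of numerical residue were set to 0, and 25 gene names had become dates.

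The paper used these p-value and ratio thresholds over all genes as well as for lists of genes by function. Here they were applied with the equal-variance test to all genes with the values as deposited, so counts over all genes come from this test alone. Independently, limma 3.58.1 (R 4.3.3) was fitted with a trend to log2(value + 1), which reduces fold changes of low genes, for the 80% of genes with the highest means, with p-values adjusted by Benjamini-Hochberg. Single genes were tested with an exact permutation test over 20 arrangements. Ratios are of group means without a pseudocount and are given where both means exceed 3 normalized counts. Python 3.11.15, numpy 2.4.6, pandas 2.3.3, scipy 1.17.1 and matplotlib 3.10.9 were used. Positions are from RefSeq (Sscrofa11.1), matched by symbol, and CRSP-2 was matched as a synonym of CRSP2.

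The members, the pathway list and the marker lists were chosen with earlier results of these data known. The genes named are all members, pathway genes that met the criteria in either comparison, 7 ligand, processing and receptor genes fixed by name, and the 3 genes most like CALCRL and RAMP2 among genes at or above the median level. CRSP-2, GNAS, TEK, CD3E, the other markers given and the neighbours of RAMP2 and CALCRL were named after their values were seen. Alternatives were other thresholds, filters, pseudocounts and variance models, size factors, quantile normalization, and each library left out.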

Additional observations from a re-analysis of the deposited data

How the results depend on the processing

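No paired analysis was run, because the labels do not say which treated and untreated cultures share an animal. The paper describes growing Obese-MSCs with or without vitamin-C, so these cultures may come from the same animals. The tests with vitamin-C were unpaired and ignore any such dependence. The count of 2 members that met the study's criteria in Obese-MSCs versus Lean-MSCs, CALCRL and RAMP2, became 0 at a p-value threshold of 0.01. After quantile normalization it was 1 (RAMP2). With 1 library left out it was between 0 and 2, and CALCRL and RAMP2 were never kept together. The 2 members without Lean 8 were CALCRL and RAMP3. The count of 2 pathway genes became 1 at 0.01 and between 1 and 5 with 1 library left out, in part with other genes than CRSP3 and VIPR1. With vitamin-C, the 1 member and the 1 pathway gene became 0 at 0.01. The pathway gene, ADM5, was also lost (0) after quantile normalization and in the upper 80% by mean, which leaves it out. With 1 library left out, members numbered 0 to 1 and pathway genes 0 to 2. The causes of these shifts were not tested. Counts from limma with vitamin-C stayed at 0 in all 13 alternatives for members and for pathway genes, with a smallest adjusted p-value of 0.9996. In the main fit 0 of all 15194 genes tested passed, so these counts of 0 do not set the listed genes apart. No direction of CALCR or RAMP3 turned in any alternative tried, in either comparison. CALCRL and RAMP2 in Obese-MSCs versus Lean-MSCs, and RAMP2 with vitamin-C, did not turn either. Their groups do not overlap there, so leaving out a library could not turn them, and nothing is read from this. The log2 ratio of CALCRL with vitamin-C ranged from -0.12 to 0.02 with 1 library left out. Low levels limit RAMP2, which had 3.77 to 5.51 normalized counts in the Obese libraries, as well as ADM, RAMP1, CRSP3 and ADM5, all near a few reads a library.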

Other observations

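Across genes, treated library 4 correlated most with untreated 1 (Pearson's r of log2(value + 1) = 0.937) and treated 5 with untreated 2 (0.937), while treated 6 had nearly equal values with untreated 1, 2 and 3 (0.912, 0.908 and 0.912). Genes are no independent replicates, and the labels give no pairing of these cultures.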
